A study of Mus musculus with 8 samples.

Results

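The G1 cyclins, their kinases CDK4 and CDK6 and the inhibitors of those kinases were followed in mouse haematopoietic stem and progenitor cells (HSPCs) by RNA sequencing. They were taken by gene symbol from a table of read counts per gene: Ccnd1, Ccnd2 and Ccnd3, Cdk4 and Cdk6, Ccne1 and Ccne2, and Cdkn1b, Cdkn2c and Cdkn2d. These are 10 of the 24421 genes listed. All 10 passed the filter on low counts, which kept 12744 genes for testing. The study asked what ectopic PRMT1, an arginine methyltransferase of histones and other proteins, does in HSPCs that lack both β-catenin (Ctnnb1) and the homeobox factor Hoxa9. The cells were taken from recipients of a primary transplant, and the 8 libraries formed 4 groups of 2. The group dKOPRMT held double-knockout (dKO) cells transduced with wild-type PRMT1. The group dKOMut held dKO cells transduced with an enzymatically dead PRMT1, although the genotype label of its replicate 2 names PRMT2. The group dKOEV held dKO cells with an empty vector, and WTEV held wild-type cells with an empty vector. Every group was thus transduced, and no group without a vector is compared here. The source labels call all libraries dKO, those titled WTEV included, so groups follow the titles. The labels give neither the species of the PRMT1 insert nor how the genes were deleted, the age of the mice or any pooling of cells. They also leave unsaid whether replicates are separate mice or cultures. The p-values accordingly describe the spread among these libraries alone, and that spread may be technical.

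D-type cyclins bind CDK4 and CDK6 in early G1, and the active kinases phosphorylate the retinoblastoma (Rb) family and release E2F factors. E-type cyclins then activate CDK2 and carry cells into S phase. The INK4 proteins encoded by Cdkn2c (p18INK4c) and Cdkn2d (p19INK4d) bind CDK4 and CDK6 directly, whereas p27KIP1, the product of Cdkn1b, acts mainly on cyclin-CDK2 complexes. In blood, mice that lack every D-type cyclin or both CDK4 and CDK6 have too few stem and progenitor cells, and p18INK4c and p27KIP1 are known restraints on stem and progenitor cell division.

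The labels were checked against the transcripts. Library totals ran from 15531344 to 22329749 counts. Prmt1 stood at 976 to 981 CPM (counts scaled to library size) in dKOPRMT, 1740 to 1760 CPM in dKOMut, 190 to 194 CPM in dKOEV and 188 to 192 CPM in WTEV and so was higher with the dead enzyme than with the active one. Hoxa9 was at 1.87 to 5.79 CPM in the 6 dKO libraries and 17.2 to 18.2 CPM in WTEV. Ctnnb1 was at 360 to 391 CPM in the dKO libraries and 444 to 455 CPM in WTEV. Counts over the whole gene do not check a deletion of some of its exons. Xist, the transcript of the inactive X chromosome, had 0 counts in every dKO library and 121 to 159 CPM in WTEV. The Y-linked Ddx3y was at 58.2 to 68.5 CPM in the dKO libraries and at 0 counts in WTEV. Genotype and sex therefore cannot be told apart in any comparison with WTEV.

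The members differed widely in level. Per length, as RPKM (CPM per kilobase of exon), Cdk4 was the highest at a mean of 212 RPKM over the 8 libraries, followed by Ccnd3 at 128 RPKM. Cdkn2d (32.6 RPKM), Ccnd2 (31.8 RPKM) and Cdk6 (26.8 RPKM) came next, then Ccnd1 (20.9 RPKM) and Cdkn2c (20.7 RPKM). The lowest were Cdkn1b (17.7 RPKM), Ccne1 (16.1 RPKM) and Ccne2 (6.67 RPKM). Neighbours in the middle of this order changed places between groups: Ccnd2 averaged 29.8 ± 1.82 RPKM in dKOEV and 39.6 ± 1.6 RPKM in WTEV, while Cdkn2d averaged 32.4 ± 1.41 RPKM in dKOEV and 29.3 ± 0.967 RPKM in WTEV (SD, n = 2 each).

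Each change below is a log2 fold change ± its standard error, n = 2 libraries in either group. A gene is said to have risen or fallen where the Benjamini-Hochberg adjusted p over the 12744 genes, from the quasi-likelihood test of edgeR, was under 0.05. In dKOEV against WTEV, the comparison for the loss of β-catenin and Hoxa9, 4 of the 10 members were called: Ccnd3 rose, and Ccnd2, Cdk4 and Cdk6 fell. Over all genes tested 15.4% were called in that comparison (8.44% higher and 7.0% lower), and the median log2 fold change was 0.05 over the members and -5e-04 over all genes. With wild-type PRMT1 (dKOPRMT against dKOEV) 3 of 10 were called, with Cdk6 and Cdkn1b higher and Ccnd1 lower, against 14.6% of all genes (5.96% higher and 8.67% lower). The medians there were 0.06 and 4e-04. With the dead enzyme (dKOMut against dKOEV) 2 of 10 were called, Cdkn1b higher and Ccnd1 lower, against 11.3% of all genes (4.24% higher and 7.08% lower), with medians of 0.10 and 0.0024. Between active and dead enzyme (dKOPRMT against dKOMut) edgeR called 0 of 10, as did DESeq2 and limma voom, against 3.11% of all genes (1.43% higher and 1.68% lower), and at an unadjusted p under 0.05 there was 1, Cdkn2d. The medians were -0.03 over the members and -0.0014 over all genes. Against WTEV, 6 of 10 members were called in dKOPRMT (3 higher and 3 lower, with 23.2% of all genes called, 11.0% higher and 12.2% lower, and medians of 0.08 and 0.001). In dKOMut 7 of 10 were called against WTEV (4 higher and 3 lower, with 19.4% of all genes called, 9.41% higher and 9.96% lower, and medians of 0.10 and 0). The comparisons with dKOEV share its 2 libraries, and those with WTEV share theirs. In bulk samples such as these, fewer cells of a type and less RNA per cell cannot be told apart.

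**Figure D1:**
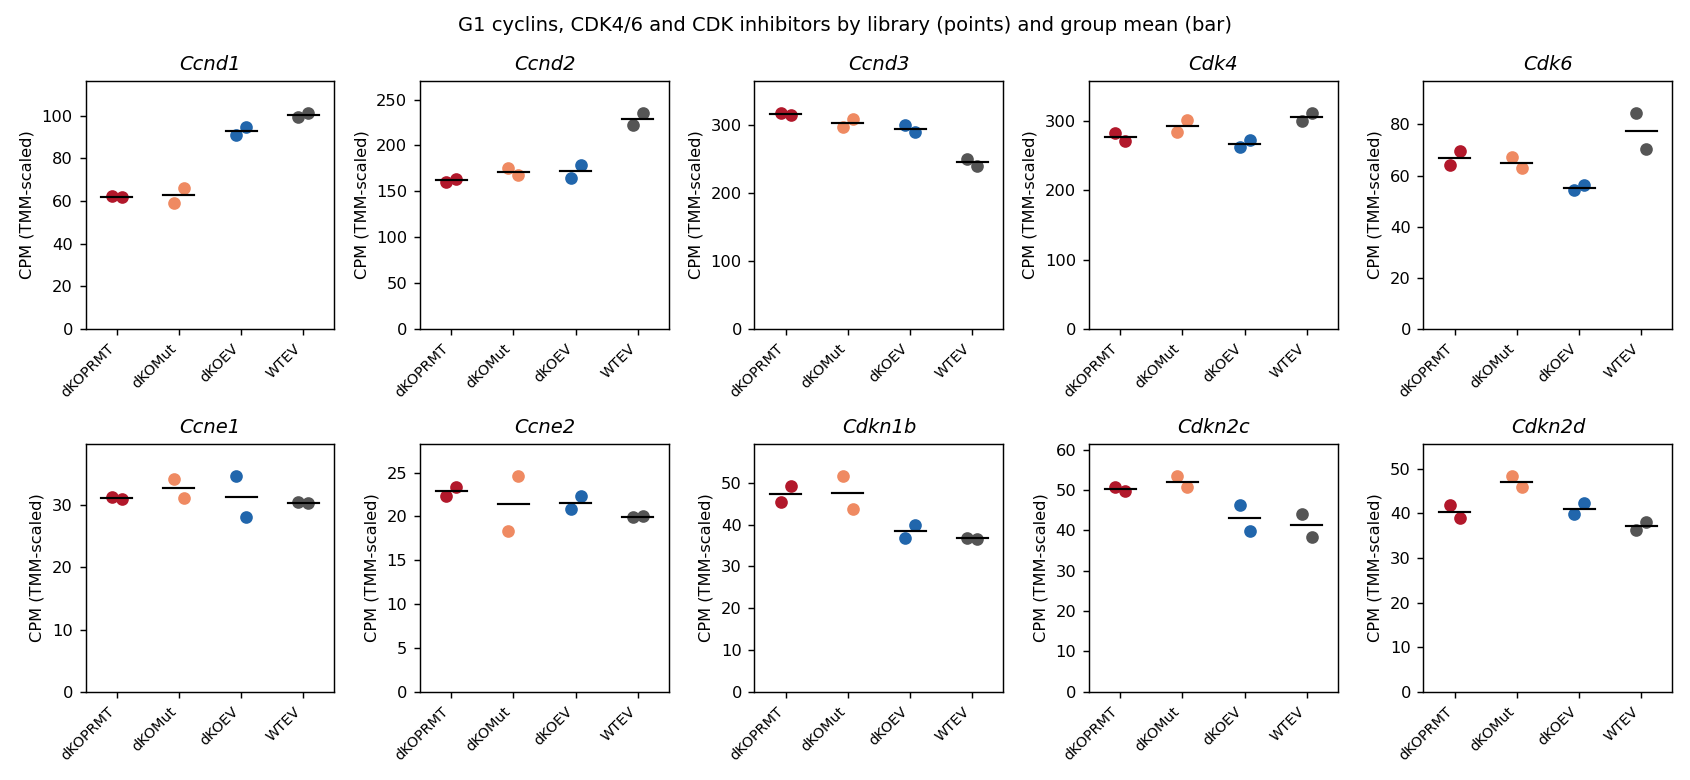
Counts scaled to library size (CPM, vertical axis, starting at 0) of the 10 members in each of the 8 libraries, 1 panel per gene; points are libraries and bars the mean of n = 2 in dKOPRMT, dKOMut, dKOEV and WTEV. Ccnd1 lies between 59.2 and 65.9 CPM in both PRMT1 groups and between 90.9 and 101 CPM in both empty-vector groups, whereas Ccnd2 and Ccnd3 separate WTEV from the 3 dKO groups.

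Among the D-type cyclins, Ccnd1 differed between the groups with and without a PRMT1 vector, and Ccnd2 and Ccnd3 between the dKO groups and WTEV. Ccnd1 (chromosome 7, 144929931 to 144939925, minus strand, GRCm38) encodes cyclin D1, a textbook target of β-catenin in epithelial cells. It stood at 62.2 and 61.9 CPM in dKOPRMT, 59.2 and 65.9 CPM in dKOMut, 90.9 and 94.4 CPM in dKOEV, and 99.3 and 101 CPM in WTEV. The 4 libraries with a PRMT1 vector were all below the 4 with an empty vector. Against dKOEV, Ccnd1 fell by 0.58 ± 0.07 in dKOPRMT, to 0.67 of the dKOEV level (adjusted p = 1.42e-07), and by 0.57 ± 0.07 in dKOMut (adjusted p = 2.50e-07). The difference between active and dead enzyme was -0.01 ± 0.07, with a 95% interval of -0.16 to 0.14. In dKOEV against WTEV, Ccnd1 differed by -0.11 ± 0.07, with a fold of 0.924 and an interval of -0.26 to 0.03, and did not pass the test (adjusted p = 0.322). Against WTEV it fell by 0.69 ± 0.07 in dKOPRMT (adjusted p = 1.21e-09) and by 0.68 ± 0.07 in dKOMut (adjusted p = 1.84e-09).

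Ccnd2 (chromosome 6, 127125709 to 127151048, minus strand) encodes cyclin D2, a growth-factor-induced D-type cyclin of blood cells. It stood at 160 and 164 CPM in dKOPRMT, 175 and 168 CPM in dKOMut, 165 and 179 CPM in dKOEV, and 222 and 235 CPM in WTEV. All 6 dKO libraries were below both WTEV libraries. Ccnd2 fell by 0.41 ± 0.05 in dKOEV against WTEV (fold 0.755, adjusted p = 3.98e-07). Its differences from dKOEV were small with either insert, -0.09 ± 0.05 in dKOPRMT (interval -0.20 to 0.02) and 0.00 ± 0.05 in dKOMut (interval -0.11 to 0.10), and neither passed the test. Ccnd2 thus lay below WTEV in both PRMT1 groups as well, by -0.49 ± 0.05 in dKOPRMT (adjusted p = 1.99e-09) and -0.41 ± 0.05 in dKOMut (adjusted p = 1.26e-07).

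Ccnd3 (chromosome 17, 47505051 to 47599688, plus strand) encodes cyclin D3, which has known roles in lymphoid, erythroid and granulocyte precursors. It stood at 317 and 315 CPM in dKOPRMT, 297 and 308 CPM in dKOMut, 300 and 289 CPM in dKOEV, and 250 and 240 CPM in WTEV. Every dKO library was above both WTEV libraries, opposite to Ccnd2. Ccnd3 rose by 0.26 ± 0.04 in dKOEV against WTEV (fold 1.2, adjusted p = 3.17e-05). Against WTEV it rose by 0.37 ± 0.04 in dKOPRMT (adjusted p = 2.67e-08) and by 0.30 ± 0.04 in dKOMut (adjusted p = 1.47e-06). Against dKOEV the differences of 0.10 ± 0.04 in dKOPRMT and 0.04 ± 0.04 in dKOMut did not pass (adjusted p = 0.117 and 0.657). The called changes of Ccnd1, Ccnd2 and Ccnd3 kept their direction and their call under every alternative run, with adjusted p-values of at most 0.00306. Ccnd3 overlaps Bysl on the opposite strand, by 358 bases at the longest overlap of an exon pair (the total over all exons was not computed). The sources used here give no strand setting for the counting, so reads from that stretch cannot be assigned to either gene.

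Because the D-type cyclins changed in different directions, their summed RPKM differed little while its makeup differed more. The sum of Ccnd1, Ccnd2 and Ccnd3 was 184 and 184 RPKM in dKOPRMT, 177 and 183 RPKM in dKOMut, 185 and 184 RPKM in dKOEV, and 175 and 173 RPKM in WTEV. Of this sum Ccnd3 made up 76.1% and 75.7% in dKOPRMT, 74.1% and 74.5% in dKOMut, 71.7% and 69.5% in dKOEV, and 63.2% and 61.2% in WTEV. The share of Ccnd1 was 8.89% and 8.85% in dKOPRMT, 8.81% and 9.49% in dKOMut, 12.9% and 13.5% in dKOEV, and 14.9% and 15.4% in WTEV. These shares are descriptions of transcript levels without a test of their own. The group order for Ccnd3 was the same with counts not divided by length, at mean shares of 58.5% in dKOPRMT, 56.3% in dKOMut, 52.7% in dKOEV and 42.7% in WTEV. The sums were not compared on that scale, on which the longer Ccnd1 and Ccnd2 weigh more, so their group order may depend on the scale.

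**Figure D2:**
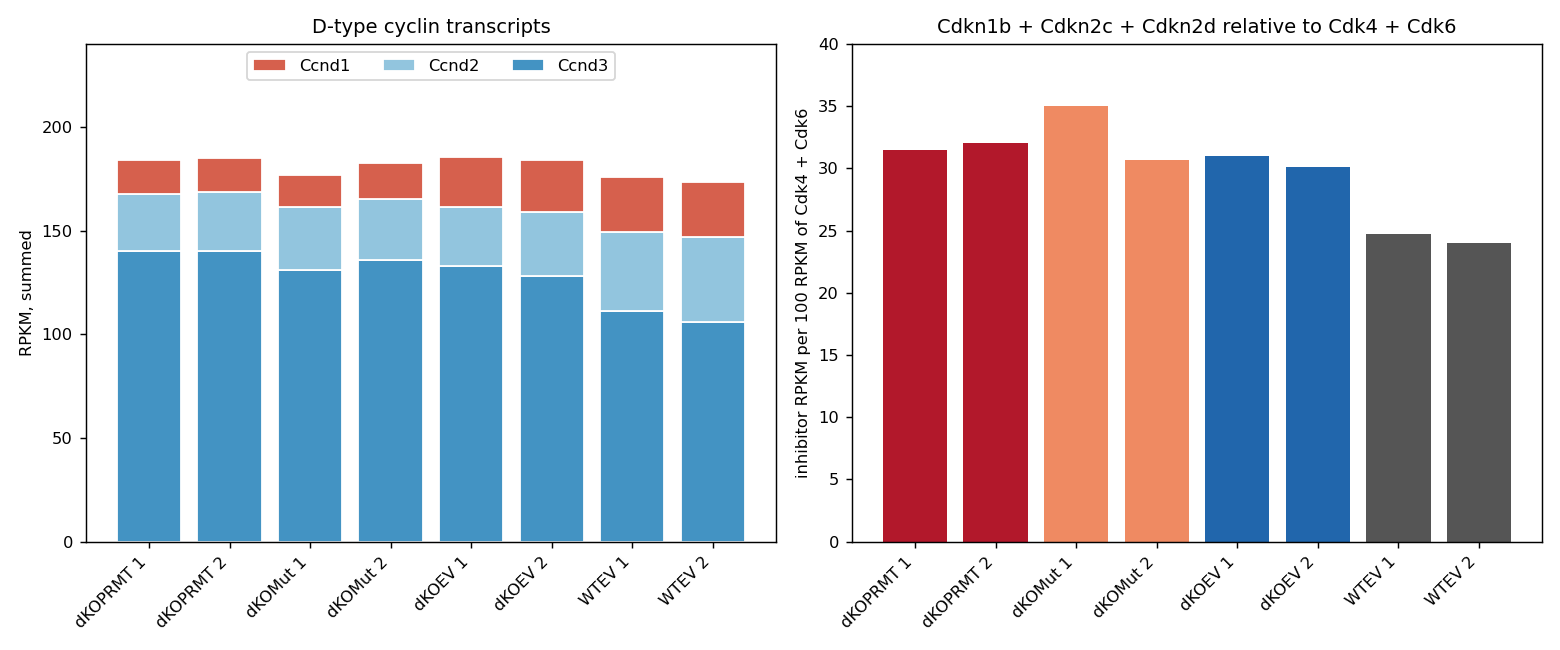
Left, level of the D-type cyclin transcripts (RPKM, stacked per library, so that the bar height is their sum), and right, inhibitor transcripts (Cdkn1b, Cdkn2c and Cdkn2d) per 100 transcripts of Cdk4 and Cdk6, in the 8 libraries grouped as dKOPRMT, dKOMut, dKOEV and WTEV. Ccnd3 makes up 69.5% to 76.1% of the bar in the dKO libraries and 61.2% to 63.2% in WTEV, and the inhibitor ratio is 30.1 to 35 in the dKO libraries and 24 to 24.7 in WTEV.

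Both kinases were lower in dKOEV than in WTEV. Cdk4 (chromosome 10, 127063603 to 127067282, plus strand) encodes the kinase found in most dividing cells. It stood at 283 and 271 CPM in dKOPRMT, 284 and 302 CPM in dKOMut, 263 and 272 CPM in dKOEV, and 300 and 311 CPM in WTEV. Cdk4 fell by 0.19 ± 0.05 in dKOEV against WTEV (fold 0.876, adjusted p = 0.00252). Without WTEV replicate 2 the adjusted p was 0.0556, the highest among the alternatives, which began at 4.59e-04. Neither insert changed it past the threshold against dKOEV, at 0.05 ± 0.05 in dKOPRMT (adjusted p = 0.545) and 0.13 ± 0.05 in dKOMut (adjusted p = 0.0573). For dKOMut the adjusted p was 0.0429 without dKOEV replicate 2, 0.0325 without dKOMut replicate 1 and 0.0371 with no filter on low counts. Against WTEV, Cdk4 fell by 0.14 ± 0.05 in dKOPRMT (adjusted p = 0.0188). That call was lost without WTEV replicate 2 (0.184) and without dKOPRMT replicate 2 (0.236), in a range that began at 0.00623.

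Cdk6 (chromosome 5, 3344312 to 3522225, plus strand) encodes the kinase best known from blood progenitors. It stood at 64.3 and 69.4 CPM in dKOPRMT, 67.1 and 63 CPM in dKOMut, 54.2 and 56.2 CPM in dKOEV, and 84.3 and 70.3 CPM in WTEV. The 2 WTEV libraries differed from each other more than those of any other group, but both lay above all 6 dKO libraries. Cdk6 fell by 0.49 ± 0.08 in dKOEV against WTEV (fold 0.714, adjusted p = 4.90e-05), and this call held under every alternative run, with fold changes of -0.61 to -0.35. Against dKOEV it rose by 0.27 ± 0.08 in dKOPRMT (adjusted p = 0.0233). The call was lost without dKOEV replicate 1 (0.0793) and without dKOPRMT replicate 2 (0.259), in a range that began at 0.00838. In dKOMut the difference from dKOEV was 0.24 ± 0.08 (adjusted p = 0.0676, and 0.0358 with no filter on low counts), and the direct difference between dKOPRMT and dKOMut was 0.04 ± 0.08 (interval -0.13 to 0.21). Cdk6 was thus between dKOEV and WTEV in all 4 PRMT1 libraries. Against WTEV the difference was -0.25 ± 0.08 in dKOMut (adjusted p = 0.0289) and -0.21 ± 0.08 in dKOPRMT (adjusted p = 0.062). The dKOMut value was -0.11 without WTEV replicate 1 (adjusted p = 0.633), and the call was also lost without dKOMut replicate 2 (0.207) and with DESeq2 (0.0656), in a range that began at 0.00474. The dKOPRMT value was -0.34 without WTEV replicate 2 (adjusted p = 0.0112), and it also passed without dKOEV replicate 1 (0.0377) or replicate 2 (0.0396), with no filter on low counts (0.0429) and with the compared groups alone (0.0342).

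The 250 bases before the RefSeq start (build GRCm38.p6) are shown for both kinases because the hexamer CACGTG, the core site of MYC and related factors, recurs in Cdk4. RefSeq windows were at hand for 7 of the 10 members. For Cdk4 and Cdk6 the RefSeq start lies upstream of the gene start given above, and distances are counted from the RefSeq start. The motif reads the same on both strands and is in capitals.
Cdk4, chr10:127063285-127063534, plus strand: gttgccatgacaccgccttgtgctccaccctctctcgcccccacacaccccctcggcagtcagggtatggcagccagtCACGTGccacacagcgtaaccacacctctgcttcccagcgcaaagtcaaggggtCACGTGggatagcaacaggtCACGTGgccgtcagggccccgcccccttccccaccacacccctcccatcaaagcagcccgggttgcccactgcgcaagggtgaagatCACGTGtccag
Cdk6, chr5:3343643-3343892, plus strand: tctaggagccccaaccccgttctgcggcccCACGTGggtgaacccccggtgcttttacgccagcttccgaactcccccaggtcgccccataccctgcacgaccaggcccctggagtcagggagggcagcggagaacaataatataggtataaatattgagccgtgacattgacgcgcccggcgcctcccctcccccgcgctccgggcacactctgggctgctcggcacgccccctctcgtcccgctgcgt
The Cdk4 window holds 4 copies, 172, 118, 98 and 11 bases before the start, and the Cdk6 window holds 1 copy, 220 bases before it. Of 32851 RefSeq windows of this length in the mouse, 6.02% hold at least 1 copy and 0.0213% (7 windows) at least 4. The windows of Ccnd3, Ccne1, Cdkn1b, Cdkn2c and Cdkn2d hold 0 copies. A match describes the letters of the window and does not show binding. Myc itself, named after its values were seen, was at 154 and 156 CPM in dKOPRMT, 162 and 168 CPM in dKOMut, 156 and 156 CPM in dKOEV, and 181 and 181 CPM in WTEV. It fell by 0.21 ± 0.05 in dKOEV against WTEV (adjusted p = 0.0033). Mycn, a close relative, rose by 0.95 ± 0.16 in the same comparison (adjusted p = 3.76e-05), at 23.9 and 21.1 CPM in dKOEV and 11.6 and 11.7 CPM in WTEV. Mxd1, an antagonist of MYC, also rose there, by 0.52 ± 0.06 (adjusted p = 1.33e-07). Whether any of them bears on Cdk4 or Cdk6 was not tested.

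The E-type cyclins did not pass the test in any of the 6 comparisons. Ccne1 (chromosome 7, 38097984 to 38107490, minus strand), which encodes cyclin E1, stood at 31.4 and 31 CPM in dKOPRMT, 34.2 and 31.2 CPM in dKOMut, 34.7 and 28.1 CPM in dKOEV, and 30.5 and 30.3 CPM in WTEV. The 2 dKOEV libraries were the highest and the lowest of the 8. Its difference was 0.04 ± 0.11 in dKOEV against WTEV, with an interval of -0.19 to 0.27, and 0.00 ± 0.11 in dKOPRMT against dKOEV, with an interval of -0.23 to 0.23. Ccne2 (chromosome 4, 11191351 to 11204779, plus strand), which encodes cyclin E2, stood at 22.3 and 23.4 CPM in dKOPRMT, 18.3 and 24.6 CPM in dKOMut, 20.8 and 22.3 CPM in dKOEV, and 19.9 and 20 CPM in WTEV. The widest spread was within dKOMut, whose libraries were the lowest and the highest of the 8. Ccne2 differed by 0.12 ± 0.14 in dKOEV against WTEV (interval -0.17 to 0.40) and by 0.08 ± 0.14 in dKOPRMT against dKOEV (interval -0.20 to 0.36). Ccne2 overlaps Ints8 on the opposite strand, by 1599 bases at the longest overlap of an exon pair. Its counts are therefore uncertain for the same reason as those of Ccnd3. Summed, the E-type cyclins were at 23 ± 0.12 RPKM in dKOPRMT, 23.4 ± 0.314 RPKM in dKOMut, 22.7 ± 2.05 RPKM in dKOEV and 21.7 ± 0.0586 RPKM in WTEV (SD, n = 2 each).

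The inhibitors were higher in the PRMT1 groups where they changed. Cdkn1b (chromosome 6, 134920401 to 134925525, plus strand) stood at 45.5 and 49.2 CPM in dKOPRMT, 51.6 and 43.7 CPM in dKOMut, 36.8 and 40 CPM in dKOEV, and 36.8 and 36.6 CPM in WTEV. All 4 PRMT1 libraries were above the 4 empty-vector libraries, the reverse of Ccnd1. Against dKOEV, Cdkn1b rose by 0.30 ± 0.10 in dKOPRMT (fold 1.23, adjusted p = 0.0341) and by 0.31 ± 0.10 in dKOMut (fold 1.24, adjusted p = 0.0333). The direct difference between dKOPRMT and dKOMut was -0.01 ± 0.10, with an interval of -0.21 to 0.19. Both calls were close to the threshold. In dKOPRMT the call was lost without dKOEV replicate 1 (adjusted p = 0.144), dKOPRMT replicate 1 (0.0674) or dKOPRMT replicate 2 (0.293) and with DESeq2 (0.0595), in a range that began at 0.0227. In dKOMut it was lost without dKOEV replicate 1 (0.135), with DESeq2 (0.0597) and with the 2 compared groups alone (0.0634), and without dKOMut replicate 1 the value was 0.19 (adjusted p = 0.398), in a range that began at 0.0116. Against WTEV, Cdkn1b rose by 0.37 ± 0.10 in dKOPRMT (adjusted p = 0.00451) and by 0.38 ± 0.10 in dKOMut (adjusted p = 0.00414). Without dKOPRMT replicate 2 the first of these had an adjusted p of 0.0913, in a range that began at 7.96e-04. Without dKOMut replicate 1 the second was 0.25 (adjusted p = 0.173, in a range that began at 0.00122). In dKOEV against WTEV the difference was 0.07 ± 0.10 (interval -0.13 to 0.27).

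The window before the Cdkn1b start is shown because it holds a pair of CCAAT boxes, the site bound by NF-Y, in capitals. The motif was searched as CCAAT and as its complement ATTGG.
Cdkn1b, chr6:134920151-134920400, plus strand: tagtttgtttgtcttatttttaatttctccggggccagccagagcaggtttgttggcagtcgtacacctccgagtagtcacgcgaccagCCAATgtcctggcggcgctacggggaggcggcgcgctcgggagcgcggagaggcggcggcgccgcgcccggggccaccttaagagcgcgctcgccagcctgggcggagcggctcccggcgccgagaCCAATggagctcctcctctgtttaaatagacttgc
The boxes lie 161 and 35 bases before the start. Of all 32851 windows 10.1% hold at least 2 and 33.8% at least 1, so such a pair is common. Among the other members with a window, Cdkn2d and a second start of Ccnd3 hold 1 copy each, 220 and 108 bases before the start.

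Cdkn2c (chromosome 4, 109660876 to 109666756, minus strand) stood at 50.9 and 49.8 CPM in dKOPRMT, 53.5 and 50.7 CPM in dKOMut, 46.4 and 39.9 CPM in dKOEV, and 44.2 and 38.3 CPM in WTEV. The PRMT1 libraries were again above all the empty-vector libraries, but the difference from dKOEV did not pass, at 0.23 ± 0.10 in dKOPRMT (adjusted p = 0.111) and 0.28 ± 0.10 in dKOMut (adjusted p = 0.0544). Without dKOEV replicate 1 both passed, at 0.34 in dKOPRMT (adjusted p = 0.0265) and 0.39 in dKOMut (adjusted p = 0.012). In dKOMut it also passed with limma voom (0.0361), with no filter on low counts (0.034) and with replicate number as a block (0.043). Against WTEV, Cdkn2c rose by 0.29 ± 0.10 in dKOPRMT (adjusted p = 0.0246) and by 0.34 ± 0.09 in dKOMut (adjusted p = 0.00903). The dKOPRMT call was lost without WTEV replicate 2, where the value was 0.19 (adjusted p = 0.365), dKOPRMT replicate 1 (0.153) or dKOPRMT replicate 2 (0.092), in a range that began at 0.00796. The dKOMut call was lost without WTEV replicate 2 (0.236) and without dKOMut replicate 1 (0.09), in a range that began at 0.00338.

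Cdkn2d (chromosome 9, 21288464 to 21291209, minus strand) stood at 41.8 and 39 CPM in dKOPRMT, 48.4 and 45.9 CPM in dKOMut, 39.8 and 42.4 CPM in dKOEV, and 36.3 and 38.1 CPM in WTEV. Both dKOMut libraries were above the other 6. It rose in dKOMut against WTEV, by 0.34 ± 0.09 (adjusted p = 0.00722), a call lost without WTEV replicate 1 (0.0954) or dKOMut replicate 1 (0.0797) in a range that began at 0.00325. Its difference between dKOPRMT and dKOMut, -0.22 ± 0.09 with an interval of -0.41 to -0.03, had the smallest p among the members in that comparison and did not pass the test (adjusted p = 0.25, edgeR).

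Summed, the 3 inhibitors stood at 74.4 and 73.3 RPKM in dKOPRMT, 83.3 and 76.8 RPKM in dKOMut, 67.3 and 67.7 RPKM in dKOEV, and 63.6 and 62.2 RPKM in WTEV. Per 100 transcripts of Cdk4 and Cdk6, on the RPKM scale, there were 31.5 and 32 in dKOPRMT, 35 and 30.7 in dKOMut, 31 and 30.1 in dKOEV, and 24.7 and 24 in WTEV. All 6 dKO libraries were above both WTEV libraries, with dKOMut overlapping dKOEV and both dKOPRMT libraries just above it. In dKOEV the kinase sum was lower than in WTEV (221 ± 5.44 against 258 ± 1.54 RPKM) and the inhibitor sum higher (67.5 ± 0.332 against 62.9 ± 0.972 RPKM; SD, n = 2 each). These ratios are descriptions of transcripts, with no test, and say nothing of protein. They leave out Cdkn1a, which is not a member and stood at 114 to 140 CPM, above each of the 3 inhibitors on that scale. They also count Cdkn1b, whose product acts mainly on cyclin-CDK2 complexes.

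**Figure D3:**
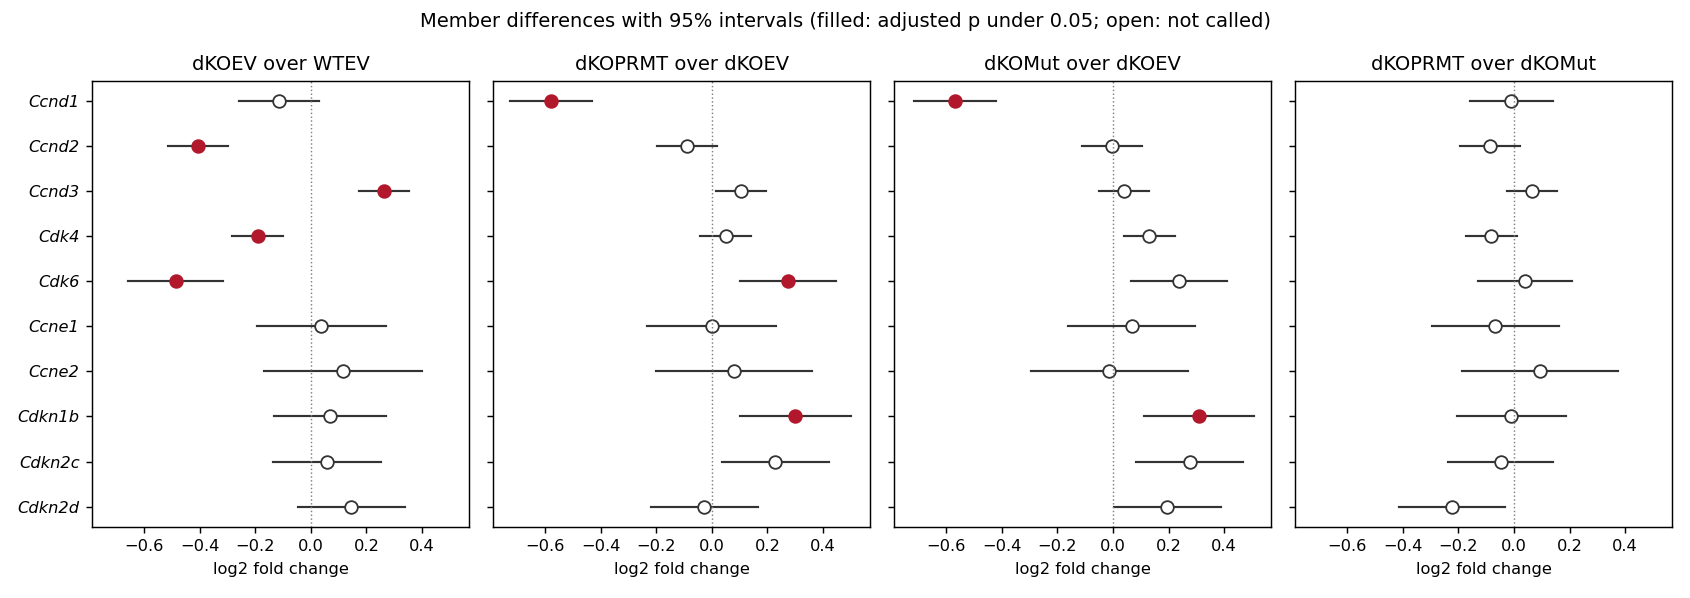
Log2 fold changes of the 10 members (points, with 95% intervals) in 4 comparisons of groups of n = 2 libraries, filled where the adjusted p is under 0.05 in edgeR. Ccnd1 stands at -0.58 and -0.57 with the active and the dead enzyme against dKOEV, and the intervals for dKOPRMT against dKOMut are centred between -0.22 and 0.09.

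Active and dead PRMT1 were therefore set against each other directly, which is also the test of whether their effects differ. Prmt1 transcripts were at 976 to 981 CPM in dKOPRMT and 1740 to 1760 CPM in dKOMut. Enzyme activity and Prmt1 level therefore cannot be told apart in this comparison. For Ccnd1, Ccnd2, Ccnd3, Cdk4, Cdk6 and Cdkn1b the 95% intervals of the difference stayed within 0.21 on the log2 scale in either direction. A p that misses the threshold does not show that the inserts act alike, and these intervals bound the size of a difference at n = 2. The widest intervals were those of Ccne2 (-0.19 to 0.37) and Ccne1 (-0.30 to 0.16), the members with the fewest counts. Cdkn2c had an interval of -0.24 to 0.14. The interval of Cdkn2d, -0.41 to -0.03, was the only one that did not hold 0, though its adjusted p of 0.25 (edgeR) missed the threshold.

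Other genes of the G1/S step were read as lists (medians are log2 fold changes; over all genes tested the median lay between -0.0014 and 0.0024). Counts in such short lists are to be read against the shares of all genes called, 15.4% in dKOEV against WTEV, 14.6% in dKOPRMT against dKOEV, 11.3% in dKOMut against dKOEV and 3.11% in dKOPRMT against dKOMut. Changes are given for list genes whose call held with each single library left out. Those of Cdkn1a and 1 further difference of Cdkn1c are also given, with their losses stated. Of the 13 Rb, E2F and DP genes tested, 2 were called in dKOEV against WTEV (1 higher, 1 lower, median 0.04), 3 rose in dKOPRMT against dKOEV (median 0.01) and 2 rose in dKOMut against dKOEV (median 0.04). The 2 calls against WTEV are 15.4% of the list, the same share as over all genes, and those against dKOEV are 23.1% in dKOPRMT and 15.4% in dKOMut. E2f2, an activator E2F of blood cells, rose by 0.27 ± 0.06 in dKOEV against WTEV (adjusted p = 0.00219) and by a further 0.26 ± 0.06 in dKOPRMT against dKOEV (adjusted p = 0.00281). It stood at 136 and 135 CPM in dKOPRMT, 123 and 137 CPM in dKOMut, 116 and 111 CPM in dKOEV, and 95.5 and 92.8 CPM in WTEV. E2f8, a repressor E2F, rose against dKOEV by 0.29 ± 0.05 in dKOPRMT (adjusted p = 9.45e-05) and by 0.25 ± 0.05 in dKOMut (adjusted p = 8.61e-04). The Rb genes themselves, Rb1, Rbl1 and Rbl2, passed in none of the 3 comparisons.

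Of 12 E2F target genes of S phase, 4 fell in dKOEV against WTEV (median -0.14), all 4 calls being lost without at least 1 library. Against dKOEV, 3 rose in dKOPRMT (median 0.12) and 1 in dKOMut (median 0.08). The called shares of the list were 33.3%, 25% and 8.33% in these comparisons. Rrm2, a ribonucleotide reductase subunit, rose by 0.22 ± 0.05 in dKOPRMT (adjusted p = 4.97e-04), at 354 and 340 CPM in dKOPRMT, 310 and 318 CPM in dKOMut, 304 and 292 CPM in dKOEV, and 322 and 351 CPM in WTEV. Mcm5, a subunit of the replicative helicase, rose by 0.16 ± 0.04 there (adjusted p = 0.00309). Of the 8 genes of the CDK2 module and CDK activation, 1 fell in dKOEV against WTEV (median -0.03), and 2 rose in dKOPRMT and 1 in dKOMut against dKOEV (medians 0.07 and 0.04). Each of those 4 calls was lost without at least 1 library, and the called shares were 12.5%, 25% and 12.5%.

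Of the 12 genes tested for turnover of G1 cyclins and p27, 2 fell in dKOEV against WTEV (median -0.04) and 1 fell in dKOPRMT against dKOEV (median 0.03). These are 16.7% and 8.33% of the list, near and below the shares over all genes. In dKOMut against dKOEV 0 were called by edgeR or DESeq2 and 1 by limma voom, with 1 at an unadjusted p under 0.05 (median 0.07). Ddb1, an adaptor of CUL4 ubiquitin ligases, fell by 0.15 ± 0.04 in dKOEV against WTEV (adjusted p = 0.00538). Of the 4 other genes tested under a CDK inhibitor symbol (Cdkn1a, Cdkn1c, Cdkn2a and Cdkn3), Cdkn3 rose and 1 fell in dKOPRMT against dKOEV (median -0.92). In dKOMut against dKOEV 1 fell, Cdkn1a (median -0.23). Both medians take in Cdkn2a, which had 1 to 17 counts in a library. Cdkn1a, at 114 to 140 CPM, differed from dKOEV by -0.16 ± 0.06 in dKOPRMT (adjusted p = 0.0688) and fell by 0.18 ± 0.06 in dKOMut (adjusted p = 0.0422). The calls of Cdkn3 and Cdkn1a were lost without at least 1 library. In dKOEV against WTEV 0 of the 4 were called by edgeR, DESeq2 or limma voom, and 0 had an unadjusted p under 0.05 (median 0.35). Cdkn1c, which encodes p57KIP2, an inhibitor known from quiescent stem cells, was the one that fell in dKOPRMT, with a log2 fold change of -2.70 ± 0.44 (adjusted p = 1.50e-05). Its counts were few: 17 and 16 in dKOPRMT, 41 and 84 in dKOMut, 74 and 136 in dKOEV, and 84 and 47 in WTEV. It was lower in dKOPRMT than in dKOMut as well, by -1.94 ± 0.45 (adjusted p = 0.00713). That difference was -1.20 without dKOMut replicate 2 (adjusted p = 0.345), and it also failed without dKOPRMT replicate 1 (0.106) or replicate 2 (0.0988) and with limma voom (0.131), in a range that began at 3.07e-04.

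Among 16 transcriptional regulators of D-type cyclins and CDK inhibitors, 4 rose and 2 fell in dKOEV against WTEV (median 0.04), 2 rose and 2 fell in dKOPRMT against dKOEV (median -0.01), and 1 rose and 1 fell in dKOMut against dKOEV (median 0.01). The called shares were 37.5%, 25% and 12.5% of the list. Mycn fell against dKOEV by 1.17 ± 0.16 in dKOPRMT (adjusted p = 1.04e-06) and by 0.96 ± 0.16 in dKOMut (adjusted p = 3.62e-05). It stood at 9.83 and 10.1 CPM in dKOPRMT, 10.9 and 12.3 CPM in dKOMut, 23.9 and 21.1 CPM in dKOEV, and 11.6 and 11.7 CPM in WTEV, so dKOEV stood apart from the other 3 groups. Myb, a progenitor transcription factor, fell by 0.25 ± 0.04 in dKOEV against WTEV (adjusted p = 6.61e-05) and rose by 0.27 ± 0.04 in dKOPRMT against dKOEV (adjusted p = 1.58e-05) and by 0.20 ± 0.04 in dKOMut against dKOEV (adjusted p = 0.00177). Mxd1, an antagonist of MYC, rose by 0.52 ± 0.06 in dKOEV against WTEV (adjusted p = 1.33e-07). Gfi1, a repressor needed in stem cells and granulocyte precursors, differed between dKOPRMT and dKOMut, which also differ in Prmt1 level. It stood at 130 and 138 CPM in dKOPRMT, 89 and 86.9 CPM in dKOMut, 81.8 and 85.7 CPM in dKOEV, and 64.3 and 66.7 CPM in WTEV. Gfi1 rose by 0.60 ± 0.07 in dKOPRMT against dKOMut (adjusted p = 4.71e-08), and Mxd1 fell by 0.44 ± 0.06 there (adjusted p = 9.65e-06). In that comparison 1 of the 8 CDK2-module genes rose and 1 of the 4 other inhibitors fell. By edgeR, DESeq2 and limma voom 0 genes of the Rb and E2F, turnover and S-phase lists were called there, with 2, 1 and 2 genes at an unadjusted p under 0.05 (edgeR).

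**Figure D4:**
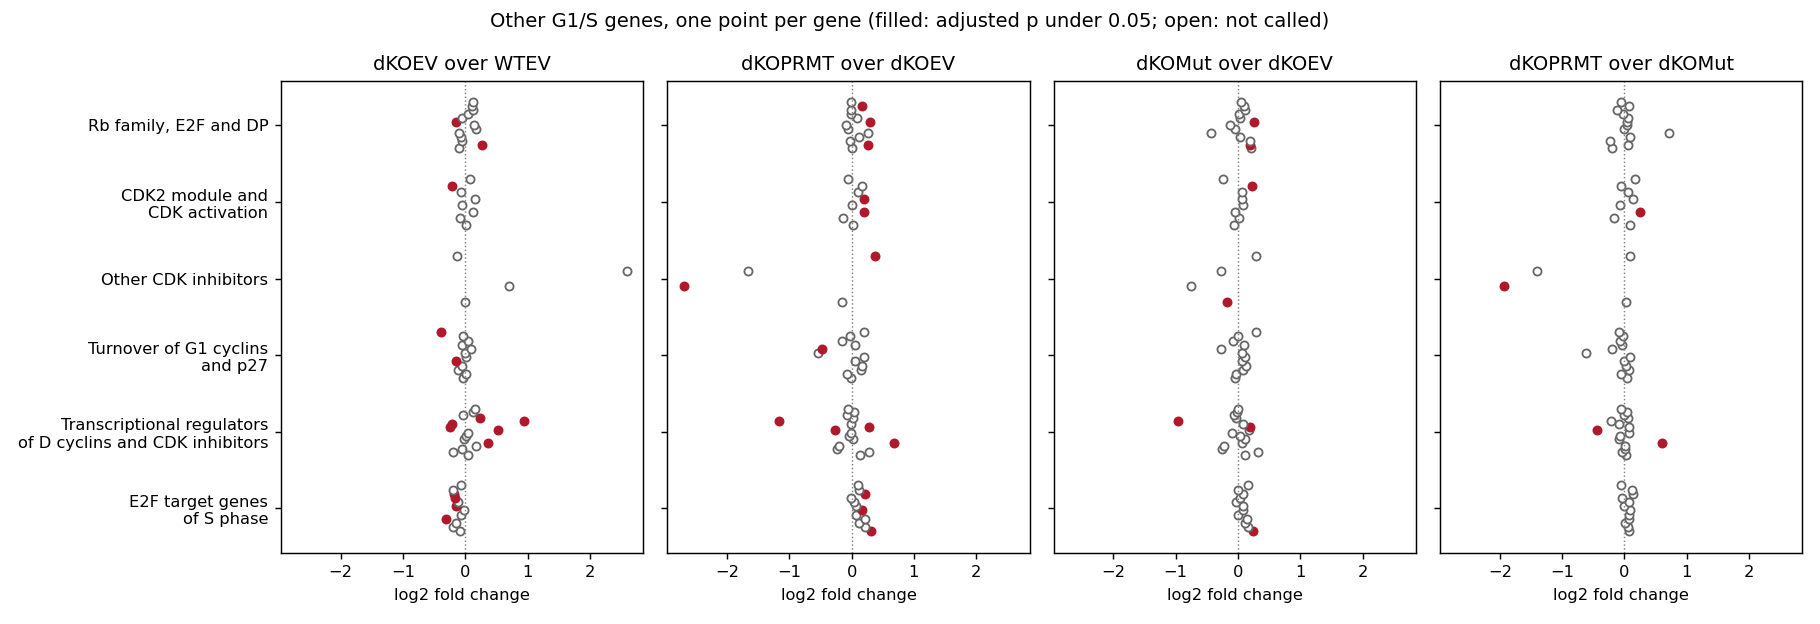
Log2 fold changes of the genes of 6 further G1/S lists (1 point per gene, each list a row, horizontal axis the log2 fold change) in 4 comparisons of groups of n = 2 libraries; filled points pass an adjusted p of 0.05 in edgeR. Among the called genes in dKOPRMT against dKOEV, Cdkn1c lies at -2.70 and Mycn at -1.17. The open point at 2.60 in dKOEV against WTEV is Cdkn2a, which had 1 to 17 counts in a library and did not pass.

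By the root mean square difference of log2(CPM + 0.5), each gene centred on its own mean over the 8 libraries, the gene most like Ccnd1 among 9935 compared was Plin2, which encodes a lipid droplet protein, at a difference of 0.0315 against a spread of 0.3184 for Ccnd1 itself. Plin2 stood at 277 and 277 CPM in dKOPRMT, 281 and 292 CPM in dKOMut, 402 and 427 CPM in dKOEV, and 455 and 459 CPM in WTEV. Next came Ly6a, which encodes the stem cell antigen SCA-1, at 0.0414, and Itga5, an integrin subunit, at 0.0417. The genes most like Cdkn1b were Ankrd44 and Hook3, both at 0.0541 against a spread of 0.1831 for Cdkn1b. Ankrd44 stood at 139 and 149 CPM in dKOPRMT, 153 and 136 CPM in dKOMut, 122 and 116 CPM in dKOEV, and 110 and 114 CPM in WTEV.

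Markers of cell types moved with these groups, and their part in the results above was not tested. The 12 neutrophil-lineage markers summed to 28700 to 29000 CPM in dKOPRMT, 29000 to 29500 CPM in dKOMut, 21900 to 22800 CPM in dKOEV and 15900 CPM in both WTEV libraries, with 10 of 12 higher in dKOEV than in WTEV. Against dKOEV, 9 of 12 were higher and 2 lower in dKOPRMT, and 11 were higher in dKOMut. The 10 HSPC markers summed to 562 to 563 CPM in dKOPRMT, 587 to 591 CPM in dKOMut, 654 to 657 CPM in dKOEV and 714 to 734 CPM in WTEV. Of these 10, 2 were higher and 3 lower in dKOEV than in WTEV, and 1 was higher and 5 lower in dKOPRMT than in dKOEV. In dKOEV against WTEV the median log2 fold change of the 10 was 0.33, although their sum was lower. The 2 higher ones, Mecom and Hlf, and the 3 lower ones, Flt3, Cd34 and Cd48, are named after their values were seen. Kit was at 137 to 171 CPM and Cd34 at 105 to 162 CPM in every library, whereas Slamf1, a marker of the stem cell compartment, was at 0.377 to 1.66 CPM. The 10 monocyte and macrophage markers summed to 7420 to 7440 CPM in dKOPRMT, 7610 to 8070 CPM in dKOMut, 8590 to 9470 CPM in dKOEV and 9560 to 9660 CPM in WTEV, with 7 of 10 lower and 2 higher in either PRMT1 group than in dKOEV. The 2 higher ones, F13a1 and Ccr2, are named after their values were seen. The 8 mast cell and basophil markers summed to 435 to 446 CPM in dKOPRMT, 806 to 807 CPM in dKOMut, 651 to 670 CPM in dKOEV and 1230 to 1280 CPM in WTEV. Of the 7 tested, 6 were lower in dKOEV than in WTEV. Against dKOEV, 5 were lower in dKOPRMT and 5 were higher in dKOMut. The 8 megakaryocyte markers summed to 274 to 287 CPM in dKOPRMT, 323 to 325 CPM in dKOMut, 491 to 493 CPM in dKOEV and 384 to 397 CPM in WTEV. Of the 7 tested, 3 were higher in dKOEV than in WTEV, and 6 were lower in dKOPRMT and 4 in dKOMut than in dKOEV. Against WTEV the list was split, with 1 higher and 3 lower in dKOPRMT and 2 higher and 2 lower in dKOMut.

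The 10 erythroid markers summed to 345 to 359 CPM in dKOPRMT, 298 to 303 CPM in dKOMut, 299 to 309 CPM in dKOEV and 404 to 413 CPM in WTEV, with 4 globin genes at 0 counts in every library. Of the 6 tested, 4 were lower in each dKO group than in WTEV. Against dKOEV, 1 was higher and 3 were lower in dKOPRMT, and 1 was lower in dKOMut. The higher one, Tfrc, made up most of each sum, at 330 and 341 CPM in dKOPRMT and 267 and 275 CPM in dKOEV. The 3 lower ones were Gata1, Klf1 and Car1, so the higher sum in dKOPRMT is that of Tfrc. The 5 eosinophil markers summed to 237 to 244 CPM in dKOPRMT, 153 to 191 CPM in dKOMut, 265 to 275 CPM in dKOEV and 229 to 245 CPM in WTEV, with 2 of 5 lower in dKOMut than in dKOEV. The 8 T and NK cell markers summed to 114 to 115 CPM in dKOPRMT, 89.2 to 94.2 CPM in dKOMut, 77.8 to 80.4 CPM in dKOEV and 96.9 to 100 CPM in WTEV, with Cd3e at 0 counts in every library. Nearly all of each sum was Nkg7, at 112 and 114 CPM in dKOPRMT, 87.7 and 92.8 CPM in dKOMut, 75.7 and 79.9 CPM in dKOEV, and 93.9 and 97.2 CPM in WTEV. The sum thus follows that gene alone. The 6 B cell markers summed to 7.89 to 12.9 CPM, with Ebf1 and Pax5 at 0 counts in the 6 dKO libraries. The 8 proliferation markers summed to 2280 to 2340 CPM in dKOPRMT, 2180 to 2220 CPM in dKOMut, 2020 to 2060 CPM in dKOEV and 2150 to 2190 CPM in WTEV. Of these 8, 2 fell in dKOEV against WTEV, 3 rose in dKOPRMT against dKOEV and 2 rose in dKOMut against dKOEV.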

How the data were processed

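Per the labels, a directional Ultra II kit was used on RNeasy-purified total RNA. The authors deposited raw read counts per gene, with gene lengths, made with Trim Galore 0.6.6, STAR 2.7.6a, featureCounts and GRCm38 (mm10), per the submitters' processing notes; the sources used here give no annotation or strand setting. In R 4.3.3, edgeR 4.0.16 (filterByExpr, TMM, robust quasi-likelihood test, Benjamini-Hochberg, threshold 0.05) took all 8 libraries in 1 fit by group, without covariates (4 residual degrees of freedom, median prior 30.4), so the spread is shared over groups and genes. CPM and RPKM were computed here from TMM-scaled totals and the deposited lengths. Replicates differed by more than sampling noise (chi-square per degree of freedom 3.65 to 6.43). Members and lists were chosen with earlier results of these data known. Named were all members, up to 4 called genes per list and comparison by smallest p, and the genes most like the members called most often; keeping only list genes whose call held without each library was decided after seeing the values. Alternatives were DESeq2 1.42.0, its size factors, limma 3.58.1 voom, no filter or a mean of 5 CPM, a threshold of 0.01, a replicate block, the compared groups alone, counts not divided by length, and each library left out. The steps were tested on simulated data. Promoter sequences are from RefSeq, GRCm38.p6.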

Additional observations from a re-analysis of the deposited data

How the results depend on the processing

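Of the 10 members, the number called stayed within 1.5 times of the reported one in most settings. In dKOPRMT against dKOEV it was 3, and 1 at an adjusted p under 0.01. In dKOMut against dKOEV it was 2, with 5 under no filter on low counts, 1 by DESeq2, 1 with the compared groups alone and 1 at an adjusted p under 0.01. With each library left out in turn, the number was 3 to 4 in dKOEV against WTEV, 1 to 3 in dKOPRMT against dKOEV (1 without dKOPRMT replicate 2), 2 to 3 in dKOMut against dKOEV, 0 in dKOPRMT against dKOMut, 3 to 7 in dKOPRMT against WTEV (3 without dKOPRMT replicate 2) and 4 to 7 in dKOMut against WTEV (4 without dKOMut replicate 1). The cause was not tested, beyond the lower power of 1 library in a group, which is then assumed to vary like the others. A like number can cover different members, as the values of Cdk4, Cdkn1b and Cdkn2c in dKOMut against dKOEV above show. No member changed direction where it was called. Replicate numbers are shared between groups, but same-numbered libraries did not deviate together (correlations -0.041 to 0.0202). The main fit left them unpaired. Such correlations cannot show that same-numbered libraries are of separate origin, which the labels leave unsaid. With replicate number as a block 3 members were called in dKOMut against dKOEV in place of 2. In the other comparisons 4, 3, 0, 6 and 7 were called, as without it. Over all genes the calls at an adjusted p under 0.01 were 1209 in place of 1967 (dKOEV against WTEV), 1139 in place of 1864 (dKOPRMT against dKOEV), 897 in place of 1442 (dKOMut against dKOEV) and 219 in place of 396 (dKOPRMT against dKOMut). Without WTEV replicate 1 or 2 they were 1209 and 1149 in dKOEV against WTEV, and without dKOPRMT replicate 1 or 2 they were 1133 and 1058 in dKOPRMT against dKOEV. In dKOPRMT against dKOMut they were 171 and 205 without dKOPRMT replicate 1 or 2 and 244 and 240 without dKOMut replicate 1 or 2, and in dKOPRMT against WTEV they were 1954 without dKOPRMT replicate 1 in place of 2955. With 2 libraries a group, no outlier can be tested for, and small changes of the low-count members Ccne1 and Ccne2 were not detectable.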
